A study of Homo sapiens with 6 samples.

Results

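The subject is a group of 159 array probes whose transcripts were detected in control Caco-2 cells and in Ha-RAS transformed Caco-2 cells, but not in Ki-RAS transformed Caco-2 cells. They were chosen by measured values out of 24350 probes with a GI number. The rule asked for a detection score of at least 0.99 on both control and both Ha-RAS arrays, a score below 0.99 on both Ki-RAS arrays, and a mean raw signal of at least 120 intensity units over the 4 detecting arrays. The detection score is the scanner software's measure, near 1 for a bright probe, of how far a probe stands above negative controls. A total of 160 probes met the rule, and 1 of them, GI_9845515-A, is left out here. Because the rule used the Ki-RAS signals, the low Ki-RAS level of these probes is what chose them and is described without a test.

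Caco-2 is an established human colon adenocarcinoma line. The control cells are labelled Caco2 (adenocarcinoma control), the Ha-RAS transformed line CacoH2 and the Ki-RAS transformed line CacoK15. All cells were grown untreated to 70% confluency, and each line was profiled on 2 Illumina arrays, called A and B after the sample titles. Both CacoK15 samples and CacoH2 sample B are labelled as rapidly growing, and sample B of CacoH2 also as having an EMT (epithelial-to-mesenchymal transition) phenotype. The mutation carried by each RAS, the promoter that drives it and whether a line is a clone are not given in the sources used here. With 1 line per RAS isoform, the isoform and the line cannot be told apart. The design text calls the samples of the RAS lines biological replicates and those of the control replicates. How cultures were separated is not stated, so p-values measure the spread between these samples, which may be technical.

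RAS proteins are small GTPases that switch between a GTP-bound active and a GDP-bound inactive state and pass signals from growth factor receptors to kinase cascades, among them RAF-MEK-ERK and PI3K-AKT. Bead arrays of this design read each transcript with a single short probe on many beads, and the suffix of the probe ID says what it reads: S a gene with a single listed transcript, A all isoforms of a gene, and I a single isoform.

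The files name probes by GI number only and do not pair them with genes. None of the 159 IDs matched the RefSeq gene table used here (GRCh38.p14, 0 matches). The probes are therefore given by ID, no gene role or sequence is stated for them, and neither the colonic identity of the cells nor the RAS transgenes could be checked on marker genes.

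Each array detected 38% to 41.9% of its probes. Probes detected on all 6 arrays numbered 7610. The detection part of the rule was met by 316 probes, of which 156 fell under the signal minimum. With the same minimum on the detecting arrays, 119 probes showed the mirror pattern, lost from the Ha-RAS line and kept by the other lines, and 176 were detected in control cells but in neither RAS line.

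On the arrays that defined the group, the 159 probes were mostly of modest brightness. The mean raw signal of the 4 detecting arrays ran from 120.1 to 2509 intensity units with a median of 173.0. It lay under 200 units for 99 probes, between 200 and 500 for 43, between 500 and 1000 for 11 and above 1000 for 6. The median member signal was 139.1 and 166.8 units on the control arrays and 161.3 and 154.6 on the Ha-RAS arrays. On the Ki-RAS arrays it was 73.6 and 75.3, beside medians over all probes of 73.6 and 77.9 on those arrays. No member reached 100 units on a Ki-RAS array, where the highest member signals were 83.3 and 86.7.

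**Figure D1:**
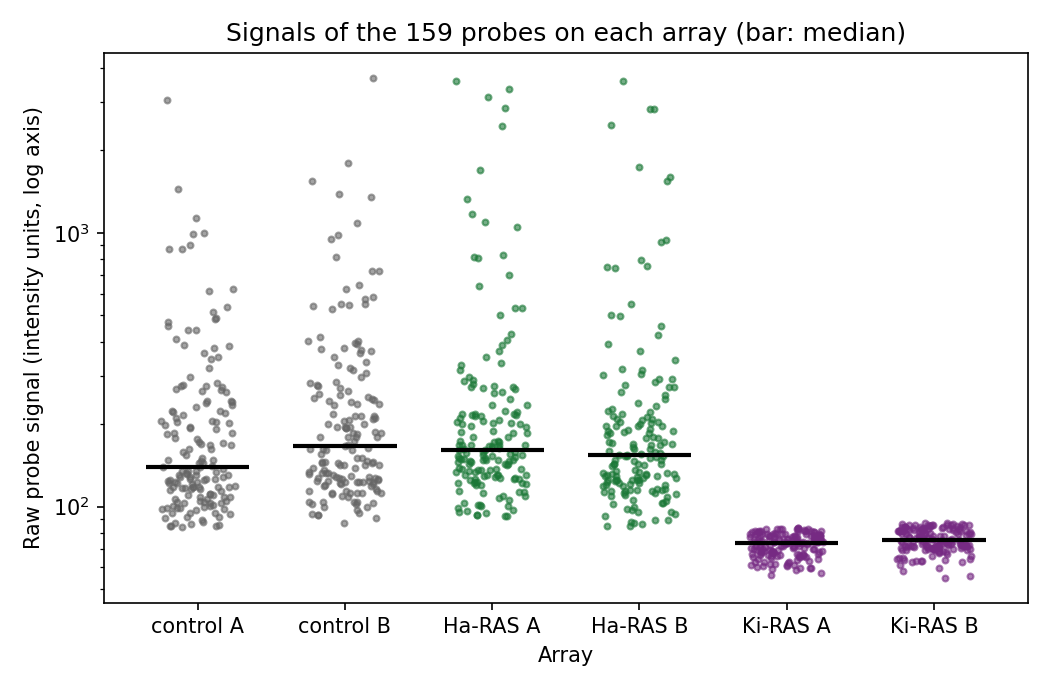
Raw signal of the 159 probes on each of the 6 arrays (log axis, intensity units), 1 point per probe, with the median as a bar. The Ki-RAS signals lie in a narrow band up to 86.7 units because the rule chose them so, while the control and Ha-RAS signals reach 3677 and 3591 units.

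The brightest member was GI_21265107-S. Its raw signal was 3067 and 3677 units on the control arrays, 1696 and 1596 on the Ha-RAS arrays, and 56 and 69.2 on the Ki-RAS arrays. It was high in both lines that detected it and within the background of the Ki-RAS arrays, with Ki-RAS detection scores of 0.088 and 0.515. GI_13027798-S was next, at 1450 and 1550 units in control, 3359 and 2844 with Ha-RAS and 74.6 and 77.2 with Ki-RAS. These 2 probes were strong in both lines that kept them, which most members were not.

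The other probes among the 6 brightest were brightest in Ha-RAS cells. GI_20452463-S gave 223.6 and 241.6 units in control, 3584 and 3591 with Ha-RAS and 81.4 and 85.8 with Ki-RAS. GI_19923194-S gave 364 and 376.5 units in control, 3127 and 2827 with Ha-RAS and 59.7 and 70.6 with Ki-RAS. GI_40538800-S gave 473.1 and 550.9 units in control, 2857 and 2476 with Ha-RAS and 69 and 86.7 with Ki-RAS. In each of these the 3 lines stood in the order Ha-RAS, control, Ki-RAS, with no overlap between the arrays of any 2 lines. GI_24797138-S showed the same order at lower control signals of 117.7 and 179 units, against 2449 and 1740 with Ha-RAS and 74.4 and 77.1 with Ki-RAS. On the background-corrected and normalised log2 scale its control arrays differed from each other more (SD 0.44) than those of the probes above (SD at most 0.20). It was the dimmest of the 6 in control cells. The separation of the Ki-RAS arrays came largely from the rule and held for all 159 members. Control and Ha-RAS values often lay apart as well. On the normalised scale they did not overlap for 77% of the 10848 probes that at least 1 line detected on each of its arrays.

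**Figure D2:**
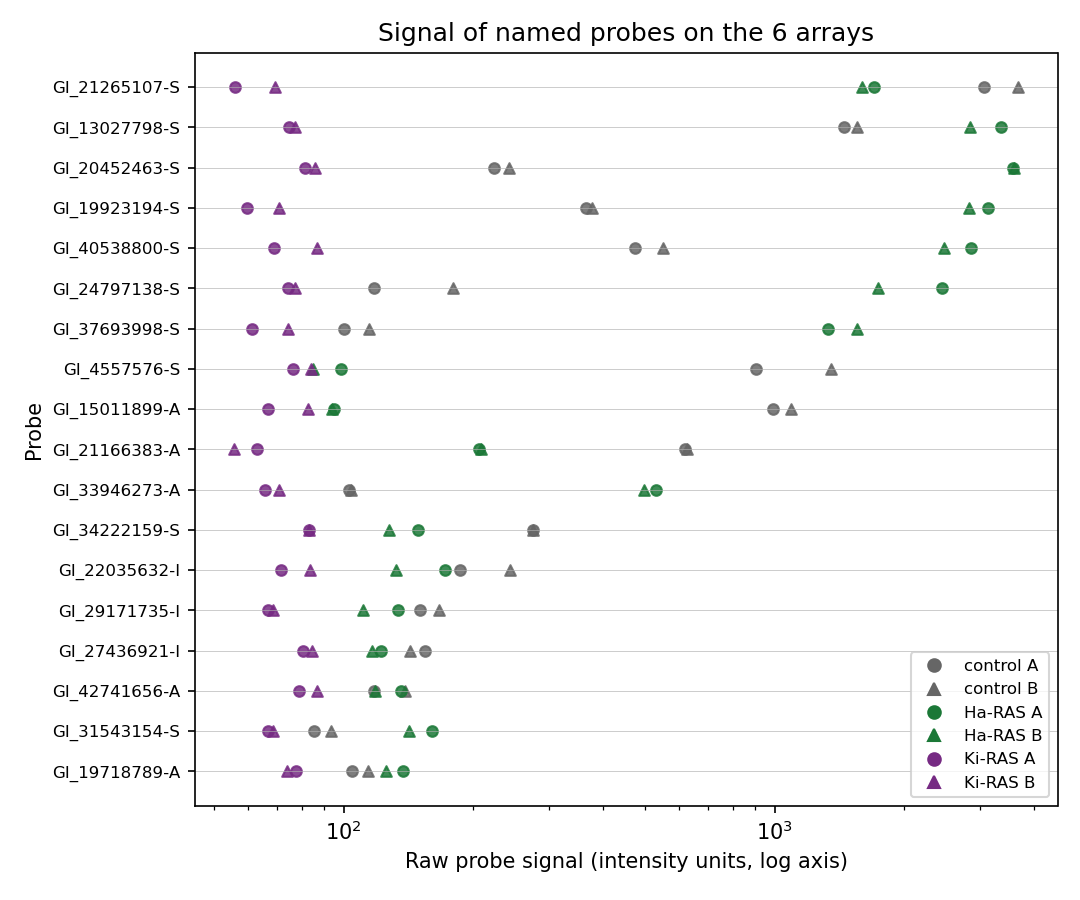
Raw signal (log axis, intensity units) of 18 named probes on the 6 arrays, ordered by mean signal, with circles for arrays A and triangles for arrays B. Ki-RAS points all lie at or below 86.7 units, and the order of control and Ha-RAS points changes from probe to probe.

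How far Ki-RAS cells lay below the other lines can only be bounded, since no member was detected there. The bound takes, on the background-corrected and normalised log2 scale, the mean of the detecting line over the mean of, per Ki-RAS array, the higher of the probe's own value and the lowest value of any detected probe. It depends on that correction, so the ratio of mean raw signals, with no correction, is given beside it. On the corrected scale GI_21265107-S was at least 95.5-fold lower in Ki-RAS than in control cells and at least 38.8-fold lower than in Ha-RAS cells, while its raw ratios were 53.9 and 26.3. GI_13027798-S was at least 41.8-fold and at least 74.0-fold lower on the corrected scale, with raw ratios of 19.8 and 40.9. For GI_20452463-S the bounds were 5.09 and 85.9 (raw ratios 2.78 and 42.9), and for GI_24797138-S 2.59 and 48.7 (raw ratios 1.96 and 27.7). The bounds against control were the lower ones for these 2 probes. Over the 159 probes the median bound was 2.86 below control and 2.50 below Ha-RAS cells. Without background correction the medians were 1.78 and 1.63.

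Both bounds reached 2-fold for 66 probes (41.5%), 4-fold for 15 and 8-fold for 6. By raw ratios, 42, 9 and 2 probes did so. Of the members short of 2-fold on a side by the bounds, 47 reached 2-fold below control only, 40 below Ha-RAS only and 6 below neither. The 6 probes with both bounds past 8-fold were GI_21265107-S, GI_13027798-S, GI_19923194-S, GI_40538800-S, GI_29745993-S and GI_40254845-S, a list drawn up after the values were seen. Of these, GI_21265107-S and GI_13027798-S also passed 8 by both raw ratios. GI_29745993-S gave 483.8 and 541.4 units in control, 1099 and 944.7 in Ha-RAS and 82.7 on each Ki-RAS array. Its Ki-RAS detection scores of 0.988 and 0.965 were close to the limit, unlike those of GI_21265107-S.

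For 5 members the bound against Ha-RAS was under 1, so no fold below Ha-RAS is given. They were GI_4557576-S and, named after their values were seen, GI_10864010-S, GI_26024196-S, GI_21536375-S and GI_20336197-A. Their raw signals in Ha-RAS cells were 84.6 to 98.8 units, beside lowest detected signals of 88.8 and 84.5 on those arrays. For these, the Ha-RAS and Ki-RAS lines fell on opposite sides of the detection limit without a measurable distance between them, while control signals ran from 167.7 to 1350 units.

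The Ki-RAS detection scores show that "lost" here means below a limit, not at the floor. The median score of the 159 probes was 0.898 on Ki-RAS array A and 0.803 on array B. For the other 14103 probes undetected on both Ki-RAS arrays the medians were 0.583 and 0.574. Scores of at least 0.90 on both arrays were found for 43 members (27%), against 5.29% of those other probes. Scores of at least 0.95 on both were found for 20 members (12.6%), against 1.85%. At the other end, 11 members scored below 0.5 on both arrays. The scores are part of the rule, and these shares describe the group without a test.

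**Figure D3:**
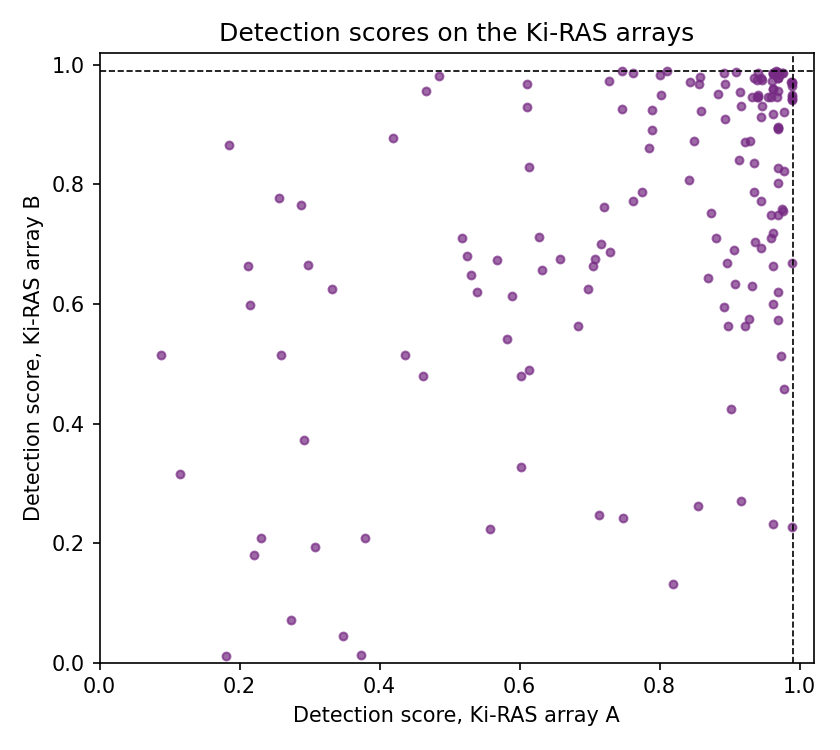
Detection score of each of the 159 probes on Ki-RAS array A (x axis) and array B (y axis), with the limit of 0.99 dashed. Points gather near the upper right corner, where 43 probes have both scores at 0.90 or higher, and 11 lie below 0.5 on both axes.

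Just above the signal minimum, GI_19718789-A had a mean of 120.1 units (104.4 and 113.7 in control, 137.2 and 125.1 with Ha-RAS, 77.5 and 73.9 with Ki-RAS). GI_31543154-S followed at 120.2 (85.2 and 93.6 in control, 160.4 and 141.5 with Ha-RAS, 66.8 and 68.7 with Ki-RAS). Just below it, GI_32483370-A had 119.7 and GI_40804749-S 119.6 units, and both showed the same detection pattern.

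On the detection side, GI_34222159-S was a member with a highest Ki-RAS score of 0.9897, at 275.6 and 275.3 units in control, 148.9 and 127.5 with Ha-RAS and 83.2 and 82.9 with Ki-RAS. GI_42741656-A reached the same highest score at 117.5 and 138.7 units in control, 135.9 and 118.4 with Ha-RAS and 78.9 and 86.7 with Ki-RAS. Both lay under the limit of 0.99 by less than a step of the score. GI_19923500-S and GI_6006008-S were no members, because Ki-RAS array B scored each at 0.991, with signals there of 86.9 and 87 units. In all, 116 probes missed the rule through detection on 1 Ki-RAS array, and 19 through a missing detection on 1 control or Ha-RAS array.

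A replicate check applied the rule to the 3 arrays of 1 letter and read the chosen probes on the arrays of the other letter, which had no part in that choice. On the A arrays the rule chose 213 probes. Of these, 162 (76.1%) were undetected on Ki-RAS array B. That was so for 3.04% of all 7244 probes that met the signal and detection limits on the control and Ha-RAS arrays A. The 7244 include the chosen probes. The median Ki-RAS minus control difference of the chosen probes on the B arrays was -1.72 on the log2 scale, and Ki-RAS minus Ha-RAS -1.63. The medians over the 7244 were -0.035 and -0.093. The B arrays chose 245 probes, of which 175 (71.4%) were undetected on Ki-RAS array A, against 3.19%. Ki-RAS array A was below control array A for 238 of the 245, and below Ha-RAS array A for 239. Some probes chosen on single arrays were thus detected on the other Ki-RAS array, 51 from the A arrays and 70 from the B arrays. The A and B samples come from the same lines and may be technical, and the members were chosen on both letters. The check therefore describes how far readings repeat within these lines and is no support for a difference between the lines.

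The comparison of Ha-RAS with control cells was not fixed by the rule, which asked for detection in both and set no direction between them. It addressed how the 2 lines that kept these transcripts differ. The values were background corrected, quantile normalised and fitted with limma over the 10848 probes that at least 1 line detected on each of its arrays, with Benjamini-Hochberg adjustment. A probe was called at adjusted p below 0.05. Of the 159 members 121 (76.1%) were called, beside 54% of all probes tested and 51.9% of the probes detected on all 6 arrays that met the same signal minimum. Of these, 56 (35.2%) were higher in Ha-RAS cells, beside 28.6% of all probes tested, and 65 (40.9%) were lower, beside 25.4%. Under a common median in place of quantile normalisation, 60 were higher and 54 lower. At least a 2-fold change was called for 81 members (50.9%), beside 23.9% of all probes tested.

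Part of this spread follows from how the members were chosen. The signal minimum applied to the mean of both lines, so a probe near background in one line passed only if it was brighter in the other. That was so for 73 members, of which 43 had a control mean under 120 units and 30 a Ha-RAS mean under 120 units. The count of calls over all 159 is thus no support for a difference. Among the 86 members with both line means at or above the minimum, 59 (68.6%) were called, 23 higher and 36 lower in Ha-RAS cells. Of the 6325 probes detected on all 6 arrays that met the minimum in both lines, 49% were called, 1577 higher and 1524 lower. A change of at least 2-fold was called for 32 of the 86 (37.2%), beside 16.1% of the 6325. The difference between these shares was not tested.

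**Figure D4:**
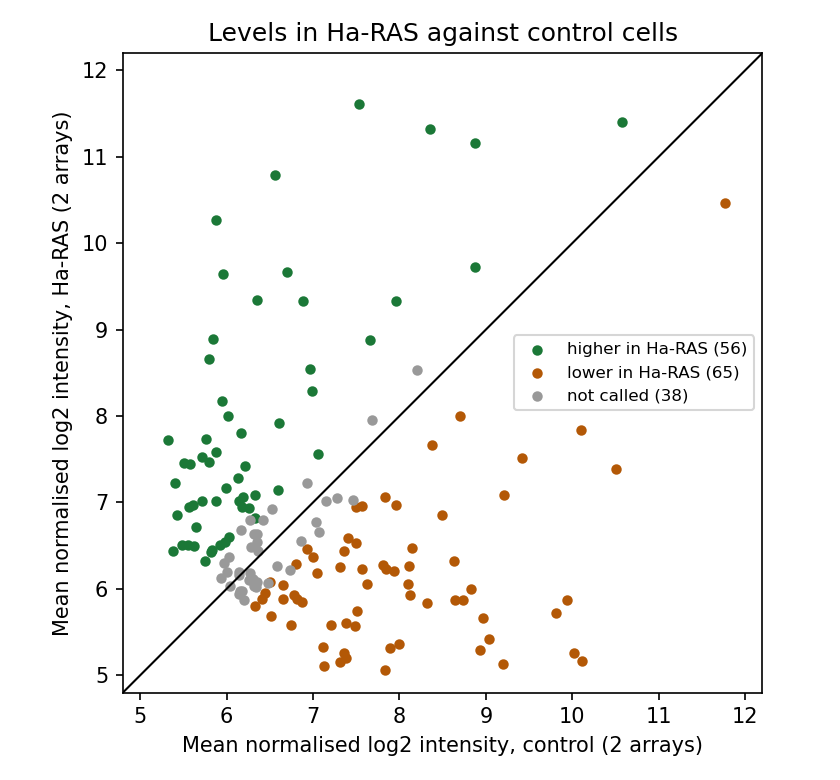
Mean normalised log2 intensity of the 159 probes in Ha-RAS cells (y axis) against control cells (x axis), 2 arrays each, with the line of equal values. The 56 probes called higher in Ha-RAS lie above the line, the 65 called lower lie below it, and the 38 not called lie along it, mostly at low intensity.

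Of the members higher in Ha-RAS than control cells, the largest difference was that of GI_37693998-S, with raw signals of 100.2 and 114.3 units in control, 1331 and 1549 with Ha-RAS and 61.3 and 74.4 with Ki-RAS. Its normalised log2 intensity was 5.88 ± 0.091 (SD, n = 2) in control and 10.27 ± 0.31 in Ha-RAS cells. Its control mean of 107.3 units was under the signal minimum, so it met the rule only through Ha-RAS cells, and its difference is a description. GI_24797138-S, above the minimum in both lines, rose from 6.56 ± 0.44 (SD, n = 2) to 10.79 ± 0.22, or 18.8-fold (log2 difference 4.23 ± 0.21 SE, adjusted p = 8.97e-08). GI_20452463-S rose 16.9-fold (adjusted p = 1.38e-08), GI_19923194-S 7.87-fold (adjusted p = 1.59e-07) and GI_40538800-S 4.87-fold (adjusted p = 5.92e-06). GI_13027798-S, bright in both lines, rose 1.77-fold (log2 difference 0.83 ± 0.15 SE, adjusted p = 0.00122).

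Of the members lower in Ha-RAS than control cells, the largest differences were those of GI_4557576-S and GI_15011899-A, which had Ha-RAS means of 91.9 and 94.3 units and met the signal minimum only through control cells. Their differences are therefore a description. GI_4557576-S gave 905 and 1350 units in control cells, 98.8 and 85 on the Ha-RAS arrays and 76.4 and 84 on the Ki-RAS arrays. Its normalised log2 intensity was 10.12 ± 0.15 (SD, n = 2) in control and 5.16 ± 0.21 in Ha-RAS cells. Both RAS lines were low for this probe, and its signal of 85 units on Ha-RAS array B lay beside a lowest detected signal of 84.5 on that array. GI_15011899-A, for all isoforms of its gene, gave 989.7 and 1090 units in control, 94.8 and 93.9 with Ha-RAS and 66.7 and 82.8 with Ki-RAS. Its normalised log2 intensity was 10.02 ± 0.16 in control and 5.26 ± 0.085 in Ha-RAS cells. GI_21265107-S, the brightest member and above the minimum in both lines, fell 2.46-fold from 11.77 ± 0.071 to 10.47 ± 0.079 (adjusted p = 4.89e-05) and was bright in Ha-RAS cells as well.

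For 38 members no difference between Ha-RAS and control cells passed the test (lowest adjusted p = 0.057). Their log2 differences lay between -0.51 and 0.52, and every one of the 38 had a 95% confidence interval within 1 log2 unit of 0 in either direction, unadjusted for the number of probes. These members were dimmer, with a median mean signal of 140.1 units, and for 19 of them both Ki-RAS bounds reached 2-fold. The brightest, picked after the values were seen, was GI_40254845-S at 279.1 and 416.8 units in control, 530.5 and 423.5 with Ha-RAS and 74.3 and 81.9 with Ki-RAS (Ha-RAS minus control log2 difference 0.33 ± 0.17 SE, 95% interval -0.053 to 0.72). On the corrected scale it was at least 8.06-fold lower in Ki-RAS than in control and at least 10.1-fold lower than in Ha-RAS cells, and its raw ratios were 4.46 and 6.11. GI_13124890-S was also picked after its values were seen. It gave 242.3 and 263.6 units in control, 328.9 and 343 with Ha-RAS and 82.4 and 83.1 with Ki-RAS. Its bound below Ha-RAS was 6.82 on the corrected scale, with a raw ratio of 4.06. The Ki-RAS detection scores of these 2 probes were 0.915 to 0.987, under the limit but high.

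By brightness, the counts are given for the 86 members with both line means at or above the minimum. Beside them stand the 6325 probes that met the same minimum in both lines but were detected on all 6 arrays, Ki-RAS included. Of the 11 members with a mean of at least 500 units, 8 were higher and 3 lower in Ha-RAS cells. Among 2504 probes of that brightness 48.6% were called, 619 higher and 599 lower. The limit of 500 units applied to the mean of both lines, so a probe bright in only 1 line could pass it. GI_24797138-S did so with a control mean of 148.4 units. The count among these 11 is thus no support for a difference. Of the 19 members under 150 units 5 were called (26.3%), all lower. Of 336 probes of that brightness 19.9% were called, 11 higher and 56 lower, so most calls were lower there as well. These shares were not tested. No such counts were made for the rest of the 86 members, which lay between 150 and 500 units.

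The suffix classes were not used by the rule. The 159 held 135 S probes (84.9%), 18 A probes (11.3%) and 6 I probes (3.77%). Among the 7231 probes detected on the 4 control and Ha-RAS arrays with the minimum met, the shares were 83.1%, 12.1% and 4.83%. Over all 24350 probes they were 79.1%, 8.96% and 12%, so that I probes were fewer among detected probes as a whole. The probes detected in control cells alone held 7.95% I probes with the same minimum, and those missing in Ha-RAS cells alone 3.36%. No test was made of these shares.

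The brightest A probes had different orders of the lines. GI_21166383-A gave 620.8 and 625.5 units in control, 206.2 and 208.1 with Ha-RAS and 62.8 and 55.7 with Ki-RAS, and was 4.37-fold lower in Ha-RAS than control cells (adjusted p = 3.30e-06). GI_33946273-A gave 102.7 and 104 units in control, 529.3 and 497.5 with Ha-RAS and 65.6 and 70.8 with Ki-RAS, and met the signal minimum only through Ha-RAS cells. The I probes were dim, with a highest mean signal of 183.4 units. GI_22035632-I and GI_29171735-I were lower in Ha-RAS than control cells, with log2 differences of -0.93 and -0.85 (adjusted p = 0.00255 and 0.00129). GI_27436921-I, the next in brightness, gave 154.4 and 142.1 units in control, 122.1 and 116.3 with Ha-RAS and 80.6 and 84.2 with Ki-RAS. Its Ha-RAS mean of 119.2 units was under the minimum. Of the 9 A probes with both line means at or above the minimum 4 were called (44.4%), beside 51% of 769 such A probes detected on all 6 arrays. Both of the 2 I probes above the minimum in each line were called, beside 46.3% of 283.

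Some genes were read by both an A and an I probe that carry 1 GI number, which gives a second reading of a member. The 159 members carry 158 GI numbers, and for 13 of these the array held such a pair. The readings matched for 4 of the 13 GI numbers in that both probes were detected in control and Ha-RAS cells and undetected in Ki-RAS cells. Both probes of GI_29171735 were members. GI_29171735-A gave 185.3 and 285.5 units in control, 167.5 and 147.6 with Ha-RAS and 66 and 72.1 with Ki-RAS, and GI_29171735-I gave 150.2 and 166.8, 133.5 and 110.9, and 66.6 and 68.5 units. The Ha-RAS minus control log2 differences of the 2 probes were -0.97 and -0.85 (adjusted p = 0.00132 and 0.00129). For 3 further GI numbers the second probe, GI_27436921-A, GI_20336250-I or GI_7706600-I, had the same detection pattern but a mean signal under the minimum.

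In the remaining 9 pairs the second probe did not share the pattern. For 7 it was detected on no array, as with GI_21166383-I, whose signals of 54.4 to 65.5 units on the 6 arrays stood beside control signals of 620.8 and 625.5 units for GI_21166383-A. GI_15011899-I was detected on the control arrays only, at 86.9 and 84.4 units. GI_21237793-A was detected on Ha-RAS array B only, at 91 units, beside member GI_21237793-I. None of the 12 second probes outside the group was detected on a Ki-RAS array. Probe pairs of 1 GI number read the same gene, so they are not separate evidence on the cell lines.

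**Figure D5:**
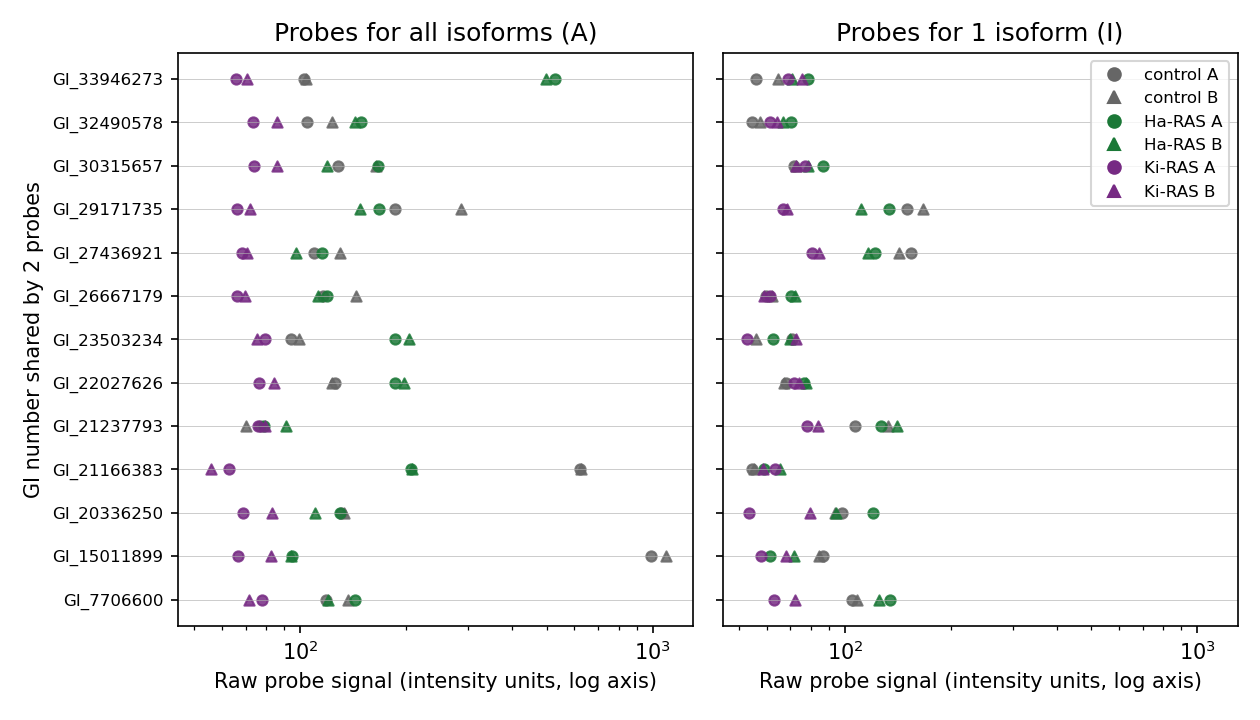
Raw signal (log axis, intensity units) on the 6 arrays for the 13 GI numbers read by both a probe for all isoforms (left) and a probe for 1 isoform (right), with circles for arrays A and triangles for arrays B. For GI_21166383 and GI_33946273 only the left panel shows signals above background, while both panels show the same order of lines for GI_29171735.

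The median number of beads per member was 42 on each Ki-RAS array, 41 on each control array and 43 and 44 on the Ha-RAS arrays, beside 41 or 42 over all probes. The lowest number of beads behind a member's Ki-RAS signal was 19 on array A and 12 on array B. The spread between beads was 6.52% and 6.39% of the signal for the median member on the Ki-RAS arrays, and 4.48% to 6.18% on the others. For the median of all probes it was 6.20% and 6.19% on the Ki-RAS arrays and 5.33% to 7.01% on the others. In cells measured in bulk, fewer cells that express a transcript and less RNA per cell cannot be told apart.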

How the data were processed

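Total RNA of 6 samples was hybridised to Illumina bead arrays. The deposited signal is a linear intensity averaged over the beads of a probe, per the file headers. The bead number, the bead-to-bead spread and a detection score were deposited beside it. Per the design text, the authors left the intensities without normalization. The submitters' processing notes name BeadStudio 1.5.13. No source used here says whether background was subtracted. The deposited value table and the array files differed in 0 cells. The 4 bacterial control rows were left out.

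Raw signals and scores were used as deposited for the choice of members. For the rest, background was corrected with nec of limma 3.58.1 (R 4.3.3; detection p as 1 minus the score, offset 16), followed by log2 and quantile normalization. The offset makes folds of dim probes smaller. The fit (lmFit and eBayes, two-sided) used all 6 arrays and 3 group means, with 3 residual and 7.1 prior degrees of freedom. The number of arrays limits the precision.

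Members and lists were chosen with earlier results of these data known. Probes were named by rule: the 6 brightest, the 2 highest and 2 lowest called Ha-RAS minus control differences, the 3 brightest A and 3 brightest I probes, and 2 on each side of each limit. Probes named after their values were seen are marked so. No probe's gene identity was taken as certain. Alternatives covered the background correction, normalization, filter, spread estimate, arrays in the fit, replicate letter, thresholds and limits of the rule. The replicate check, the raw ratios, the shares by brightness and suffix and the counts per direction were added after the data were seen.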

Additional observations from a re-analysis of the deposited data

Results flagged for a closer look

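The 56 members (35.2%, beside 28.6% of all probes tested) higher in Ha-RAS than in control cells were below the detection limit in Ki-RAS cells. For these the 2 RAS lines lay on opposite sides of control by the Ki-RAS detection call, not by a measured fall in each. The bound of Ki-RAS below control was as low as 1.10, for GI_23308570-S, a probe named after its values were seen. Its signals were 87.8 and 87.1 units in control and 78.2 and 63.8 with Ki-RAS. The low Ki-RAS side was set by the rule that chose the members, and the difference between the lines was not tested. Of the 56, 33 had a control mean under the signal minimum and met it only through Ha-RAS cells. With 2 arrays per line, single arrays that stand apart could not be looked for.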

How the results depend on the processing

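The number of members depended most on the limits of the rule. It was 315 with no signal minimum and with a minimum of 60 units, 251 at 100 and 60 at 200 units. It was 98 with a detection score of 0.95 throughout and 88 with Ki-RAS scores below 0.95, with 88 of the 159 in each. The rule chose 245 probes on the B arrays alone. Leaving out 1 array gave 160 to 220 probes.

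The number of members called between Ha-RAS and control cells was 114 to 124 under settings at the same threshold that left out no single array, the replicate block among them (120). The fit over all 24350 probes called 116 members and 22.5% of probes. Under the others of these settings 50.2% to 55.4% of all probes fitted were called. No call changed direction under any of these settings. With the threshold at adjusted p below 0.01, 105 members were called. Leaving out a Ha-RAS or control array brought the number of calls below the range given above. Such a refit has a single array left in that line, so its count is not given. The range therefore does not show how far the calls depend on any single array. The letters A and B need not pair the samples, since deviations from the line means correlated at -0.177 between control and Ha-RAS, 0.104 between control and Ki-RAS and -0.173 between Ha-RAS and Ki-RAS arrays across probes. Under a common median 60 were higher and 54 lower in Ha-RAS cells, so the more frequent direction changed. In that fit 52.8% of all probes tested were called in either direction. With 2-fold required as well, 81 members (50.9%) were called, 43 of them lower in Ha-RAS cells, beside 23.9% of all probes tested. The member counts above take in the 73 members with a line mean under the signal minimum, and are thus no support for a difference. Of these 73, 67.1% were called at 2-fold. Among the 86 members with both line means at or above the minimum it was 37.2%, beside 16.1% of the 6325 comparison probes. For these 86, no counts under the other settings are given. The Ha-RAS minus control differences of 18 named members kept direction and side of the threshold in 288 of 288 refits. The median bound of Ki-RAS below control was 1.78 without background correction and 1.96 with an offset of 50. Below Ha-RAS it was 1.63, 1.78 and, under a common median, 2.94. Dim signals near background limit all bounds.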
